A study of Mus musculus with 19 samples.

Results

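Neurturin (gene symbol Nrtn) is a secreted growth factor of the GDNF family. It is described here with 7 related genes: the receptor genes Gfra1, Gfra2 and Ret, the neurotrophin ligands Bdnf and Ntf3, and the neurotrophin receptors Ntrk2 and Ntrk3. These 8 genes, of 41388 counted in each library, were taken because Nrtn reads were fewer in the cerebellum of mice heterozygous for a mutation in Wiz, and the other 7 are ligands and receptors around it. All 8 were found in the files by their Ensembl identifiers. Since the cerebellar difference between genotypes chose the set, the values of the 8 genes in that comparison are a description. No p-value is printed for them, and calls counted among them there are not read as evidence.

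The study asked how losing the function of 1 copy of Wiz changes transcription in the mouse brain. Wiz encodes a zinc finger protein that binds the histone methyltransferases G9a and GLP, and MommeD30 is an allele of Wiz induced by the mutagen ENU. Poly(A) RNA from 16 samples was sequenced: cerebellum of mice 56 days old (males, 8 weeks old, by the methods), 3 Wiz +/+ and 3 Wiz MommeD30/+, male whole brain at embryonic day 13.5 (E13.5), 3 and 3, and female whole brain at E13.5, 2 and 2. All mice were FVB. By the methods, the mutation was kept by crossing to Line3, an FVB/NJ strain homozygous for a multicopy GFP transgene, so both genotypes share that background, and the embryos came from crosses between heterozygotes and were sexed by PCR. The study calls its samples biological replicates. Whole tissue was sequenced, so fewer cells of a type and less RNA per cell cannot be told apart in any of the values below.

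GDNF family ligands act through a receptor of 2 kinds of subunit. Each ligand binds a GFRα co-receptor anchored in the membrane, neurturin preferring GFRα2 (Gfra2) and GDNF preferring GFRα1 (Gfra1), and the pair then engages the tyrosine kinase RET (Ret). Neurotrophins bind tyrosine kinases directly: BDNF (Bdnf) binds TrkB (Ntrk2), NT-3 (Ntf3) binds mainly TrkC (Ntrk3), and both also bind p75 (Ngfr). In the cerebellum BDNF and NT-3 are known for the survival, migration and process growth of granule and Purkinje cells.

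On mouse build GRCm38, Nrtn (ENSMUSG00000039481) lies on the minus strand at chr17:56751325-56757530, on the same chromosome as Wiz and 24.4 Mb from it. The co-receptor genes Gfra1 and Gfra2 lie at chr19:58235604-58455909 and chr14:70890120-70979838, and Ret lies at chr6:118151745-118197718. Bdnf lies at chr2:109674700-109727007 and Ntf3 at chr6:126101412-126166910. Ntrk2 and Ntrk3 lie at chr13:58806569-59133970 and chr7:78175959-78738012. RefSeq promoter windows (build GRCm38.p6, from 250 bases before to 50 bases after a start) were at hand for 5 of the 8 genes, with 7 windows for Bdnf, 2 for Ntf3 and 1 each for Nrtn, Gfra1 and Ntrk2. The window of Nrtn is shown because Nrtn led to the set. The Bdnf window shown holds a match to 2 of the motifs searched. An Ntf3 window (chr6:126166695-126166994) also matched 2, a GC box and an E-box (CACGTG), and is not shown. In the 2 shown, capitals mark matches on either strand. These are to a GC box (GGGCGG), the half-site of a cAMP response element (CGTCA) or a CTCF core. The core is CCA, 2 bases of any kind, AG, 2 bases of any kind and GGC. The full element (TGACGTCA) and the E-box were searched too and had no match in the 2 shown. No motif overlaps another in them.
Nrtn, minus strand, chr17:56757499-56757798: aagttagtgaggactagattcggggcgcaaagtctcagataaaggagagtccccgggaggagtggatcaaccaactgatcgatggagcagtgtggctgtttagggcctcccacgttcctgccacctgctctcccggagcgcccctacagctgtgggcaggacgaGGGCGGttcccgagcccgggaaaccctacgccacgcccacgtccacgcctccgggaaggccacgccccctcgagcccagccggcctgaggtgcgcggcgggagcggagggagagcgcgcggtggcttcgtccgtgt
Bdnf, plus strand, chr2:109692186-109692485: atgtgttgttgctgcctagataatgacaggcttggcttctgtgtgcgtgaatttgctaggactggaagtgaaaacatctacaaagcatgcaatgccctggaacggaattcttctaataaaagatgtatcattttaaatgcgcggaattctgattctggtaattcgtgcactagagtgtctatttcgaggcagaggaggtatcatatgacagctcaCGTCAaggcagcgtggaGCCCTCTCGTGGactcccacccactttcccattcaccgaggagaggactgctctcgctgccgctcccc

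The Nrtn window is 66.7% G and C with 28 CpG dinucleotides, against a median of 52.7% and 7 over all 32851 promoters. The printed Bdnf window is 48.7% G and C with 12 CpG dinucleotides. A GC box occurs in 35.7% of all promoters, the half-site in 20.8%, the CTCF core in 2.43%, the E-box in 7.15% and the full element in 1.79%. These matches describe the letters of the windows only. The counts sum reads over all starts of a gene, so the 7 Bdnf starts cannot be separated.

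Libraries held 16386029 to 50459755 counts. Wiz itself, the mutated gene, ran at 95.4 to 95.5 CPM (counts-per-million of the library's total) in Wiz +/+ cerebellum and 66.6 to 67.7 in Wiz MommeD30/+, and its level separated the genotypes in each of the 4 comparisons (log2 fold change -0.50 to -0.63). Summed Purkinje cell markers were 6623 to 7113 CPM in cerebellum and 84.6 to 97.8 in E13.5 brain. Some libraries stood apart in markers of neighbouring tissue. Wiz +/+ cerebellum 1 held 47.0 CPM of pituitary markers against 0.844 to 1.47 in the other 5, Wiz MommeD30/+ cerebellum 2 held 964 CPM of choroid plexus markers against 1760 to 2067, and the female E13.5 brains Wiz +/+ 2 and Wiz MommeD30/+ 2 had the highest and the lowest level of sensory ganglion markers.

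Nrtn was low in every library. In Wiz +/+ cerebellum it ran at 1.11, 1.01 and 1.27 CPM, which is 34, 30 and 39 reads, and in Wiz MommeD30/+ cerebellum at 0.776, 0.305 and 0.583 CPM, or 22, 9 and 18 reads. All 3 heterozygous libraries were below all 3 wild-type libraries, and the means were 1.13 ± 0.131 and 0.555 ± 0.236 CPM (SD, n = 3 each). The log2 fold change was -1.03 with a standard error of 0.27. With Wiz MommeD30/+ replicate 2, the lowest and the one low in choroid plexus markers, left out, it was -0.74, and over all libraries left out in turn it ran from -1.33 to -0.74. It is the 1 of the 8 genes past the threshold in this comparison (a fold under 0.7 or over 1.3 with an edgeR adjusted p no larger than 0.05), which 0.832% of all 15979 genes tested passed, and it fell short of it without Wiz +/+ replicate 1 or 3 or Wiz MommeD30/+ replicate 2 or 3. Nothing is read from that count, since the same contrast chose the gene.

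At E13.5 Nrtn rested on fewer reads in males than in wild-type cerebellum. The Wiz +/+ male brains had 0.515, 0.671 and 0.524 CPM and the Wiz MommeD30/+ male brains 0.422, 0.488 and 0.176 CPM, which rest on 26, 11 and 18 reads and on 17, 20 and 6 reads. These groups did not overlap, but the log2 fold change of -0.56 had a standard error of 0.33 and missed the threshold (edgeR adjusted p = 0.687). Female Wiz +/+ brains had 0.674 and 0.659 CPM and Wiz MommeD30/+ brains 0.614 and 0.602 CPM, again without overlap, with a log2 fold change of -0.14 ± 0.26 (edgeR adjusted p = 0.948). Over all 10 brains with sex in the fit the value was -0.35 ± 0.22 (edgeR adjusted p = 0.561). The difference between the cerebellar and the male E13.5 effect was -0.47 with a standard error of 0.46, given without a test since it contains the cerebellar contrast.

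**Figure D1:**
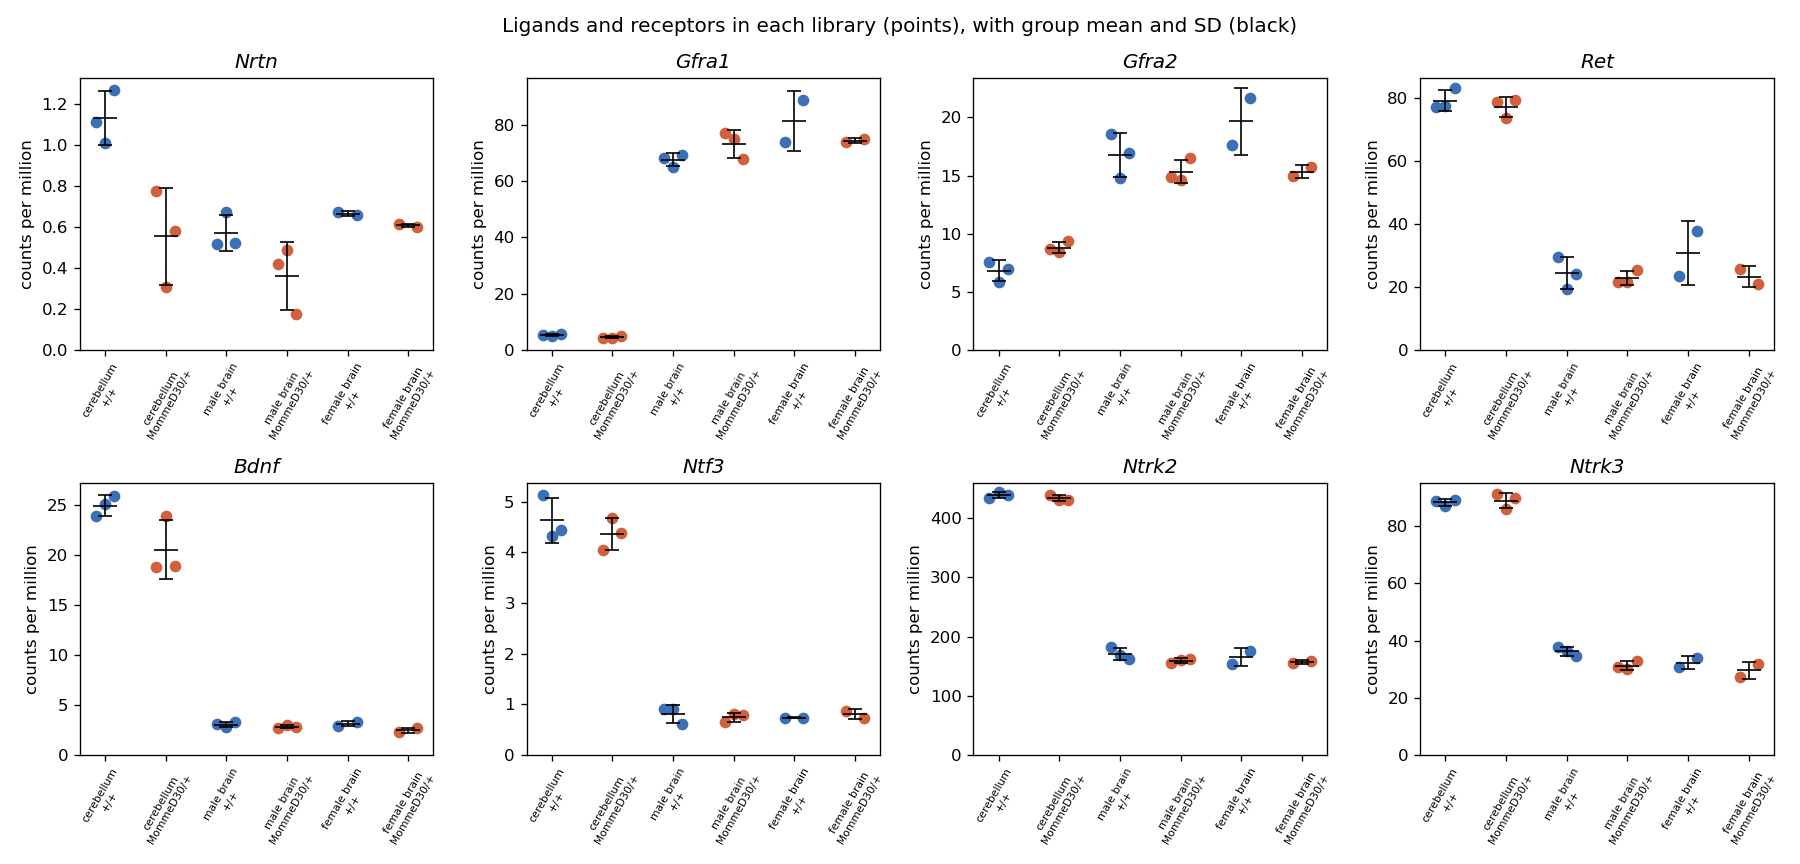
Counts-per-million (CPM, vertical axes, linear, each starting at 0) of the 8 genes in every library, grouped by tissue, sex and genotype, with the group mean and SD in black. Nrtn in the 3 heterozygous cerebellums, 0.305 to 0.776, lies below the 3 wild-type ones, 1.01 to 1.27, while Ntrk2, Ntrk3, Ntf3 and Ret overlap between the genotypes in cerebellum.

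The 2 co-receptor genes had estimates of opposite sign in cerebellum. Gfra2, the preferred co-receptor of neurturin, had 7.59, 5.84 and 6.98 CPM in Wiz +/+ and 8.64, 8.45 and 9.33 CPM in Wiz MommeD30/+, so every heterozygous library was above every wild-type one. Its log2 fold change was 0.37 ± 0.10 (SE), a fold just inside the limit of 1.3. Gfra1, the preferred co-receptor of GDNF, had 5.27, 4.90 and 5.51 CPM against 4.41, 4.34 and 4.89 CPM, with no overlap and a log2 fold change of -0.20 ± 0.10 (SE). Per kilobase of exon, the ratio of Gfra2 to Gfra1 was 2.01 ± 0.197 in Wiz +/+ and 2.998 ± 0.0421 in Wiz MommeD30/+ (SD, n = 3 each). Nrtn, Gfra1 and Gfra2 are the 3 of 8 genes whose cerebellar groups did not overlap, which 24.3% of all genes tested showed. By the adjusted p alone 3 of the 8 genes were called, Nrtn, Gfra2 and Bdnf, beside 5.25% of all genes tested. The contrast served in the choice, so nothing is read from these counts either.

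Neither co-receptor passed the test at E13.5. Gfra2 had 18.6, 14.8 and 16.9 CPM in male Wiz +/+ brain and 14.9, 14.6 and 16.5 CPM in male Wiz MommeD30/+ brain. Its female values were 17.6 and 21.7 against 14.9 and 15.7 CPM, and over the 10 brains its log2 fold change was -0.24 ± 0.08 (edgeR adjusted p = 0.234). The estimate thus had the opposite sign to that in cerebellum, and the difference of the cerebellar and the male E13.5 effects was 0.53 ± 0.14 (SE), given without a test since it contains the cerebellar contrast. Gfra1 had 65.2 to 69.5 CPM in male Wiz +/+ and 67.9 to 77.3 CPM in male Wiz MommeD30/+ brain, and its log2 fold change over the 10 brains was 0.01 ± 0.06 (edgeR adjusted p = 0.969).

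Ret, the shared kinase, overlapped between the genotypes in cerebellum. It had 77.0, 77.3 and 83.0 CPM in Wiz +/+ and 78.7, 73.6 and 79.3 CPM in Wiz MommeD30/+, a log2 fold change of -0.03 ± 0.04 (SE). At E13.5 the male values were 29.5, 19.3 and 24.1 against 21.4, 21.6 and 25.4 CPM, and the female values 23.6 and 37.8 against 25.6 and 20.9 CPM. The wild-type female 2 at 37.8 CPM was the highest of the 10 brains. Ret did not pass over the 10 brains (-0.25 ± 0.13, edgeR adjusted p = 0.486). Without the female of each genotype that stood apart in ganglion markers, picked after the data were seen, the estimate was -0.07. In females alone it was -0.40 ± 0.20 (edgeR adjusted p = 0.798), and leaving out female Wiz +/+ replicate 1, so that the library with 37.8 CPM alone stood for wild type, moved it to -0.70 and past the threshold (edgeR adjusted p = 0.00529).

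Of the other GDNF family genes, none that was tested passed the threshold between genotypes. The filter on low counts removed Pspn from every genotype comparison, and Artn and Gfra3 from the cerebellar one. Gdnf, the ligand that prefers GFRα1, had 0.654, 0.270 and 0.489 CPM in Wiz +/+ cerebellum and 0.846, 1.12 and 0.843 CPM in Wiz MommeD30/+ cerebellum. These rest on 20, 8 and 15 reads and on 24, 33 and 26 reads. The groups did not overlap, and the log2 fold change of 0.98 ± 0.29 missed the threshold (edgeR adjusted p = 0.0580). Of 6 fits that left out 1 library, 1 had an adjusted p of 0.05 or under. Per kilobase of exon, Nrtn exceeded Gdnf 6.11 to 13.5 times in the wild-type cerebellums and 0.979 to 3.29 times in the heterozygous ones, a ratio that includes the Nrtn values used in the choice. Gfra4, the co-receptor of persephin, fell over the 10 E13.5 brains by 0.38 ± 0.08 on the log2 scale (edgeR adjusted p = 0.0490), a fold of 0.771 that is inside the limit, and leaving out 1 library at a time kept the adjusted p at 0.05 or under in 2 of 10 fits.

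Bdnf was lower on average in heterozygous cerebellum, with overlap. It had 23.8, 25.0 and 25.9 CPM in Wiz +/+ and 18.8, 23.9 and 18.9 CPM in Wiz MommeD30/+. The 1 heterozygous library that exceeded the lowest wild-type one was replicate 2, the library low in choroid plexus markers. The log2 fold change was -0.28 ± 0.07 (SE), and it ran from -0.40 to -0.22 across the alternatives. At E13.5 Bdnf was at 3.07, 2.75 and 3.29 CPM in male Wiz +/+ and 2.73, 2.98 and 2.78 CPM in male Wiz MommeD30/+ brain. The females had 2.93 and 3.32 against 2.28 and 2.65 CPM, without overlap, and over the 10 brains the log2 fold change was -0.22 ± 0.09 (edgeR adjusted p = 0.376).

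Ntf3 did not separate the genotypes in either tissue. It had 5.14, 4.32 and 4.43 CPM in Wiz +/+ cerebellum and 4.05, 4.68 and 4.38 CPM in Wiz MommeD30/+ cerebellum, a log2 fold change of -0.08 ± 0.11 (SE). In E13.5 brain all 10 values lay between 0.611 and 0.915 CPM, with a log2 fold change of -0.01 ± 0.16 between genotypes (edgeR adjusted p = 0.990). The sign of its estimate turned when single libraries were left out.

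Among the Trk receptors, Ntrk2 was the most abundant of the 8 genes in cerebellum and also the most even. It had 435, 444 and 440 CPM in Wiz +/+ and 440, 431 and 431 CPM in Wiz MommeD30/+ cerebellum, a log2 fold change of -0.02 ± 0.03 (SE). In male E13.5 brain the values were 182, 169 and 161 against 155, 160 and 163 CPM, and in females 154 and 176 against 155 and 159 CPM, with a log2 fold change over the 10 brains of -0.10 ± 0.04 (edgeR adjusted p = 0.366).

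Ntrk3 had 89.0, 87.1 and 89.1 CPM in Wiz +/+ and 91.3, 86.0 and 89.8 CPM in Wiz MommeD30/+ cerebellum, a log2 fold change of 0.01 ± 0.03 (SE). In male E13.5 brain it had 37.8, 36.4 and 34.5 CPM in Wiz +/+ and 30.7, 30.1 and 32.9 CPM in Wiz MommeD30/+, with no overlap. That difference of -0.22 ± 0.05 missed the threshold (edgeR adjusted p = 0.216), as did the one over the 10 brains of -0.18 ± 0.05 (edgeR adjusted p = 0.175). The female values, 30.8 and 33.8 against 27.4 and 31.7 CPM, overlapped. Of the 8 genes, Ntrk3 had the smallest E13.5 adjusted p over both sexes.

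Across E13.5 brain 0 of the 8 genes passed the threshold in males, in females or over both, against 0.184%, 0.111% and 0.346% of all genes tested. Unadjusted edgeR p-values under 0.05 were found for 3, 1 and 4 of the 8, against 8.45%, 6.4% and 11.8% of all genes tested. The estimate was below 0 for 7 of the 8 genes in each of these comparisons, as it was for 8421 of 16848 genes tested in males, 8572 of 17152 in females and 8871 of 17620 over both. The comparisons share libraries, so the 3 counts are not independent. Groups that did not overlap numbered 2 of 8 in males (Nrtn and Ntrk3, both lower in Wiz MommeD30/+) against 5.4% of all genes lower without overlap, and 3 of 8 in females (Nrtn, Gfra2 and Bdnf, all lower) against 17.3%.

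**Figure D2:**
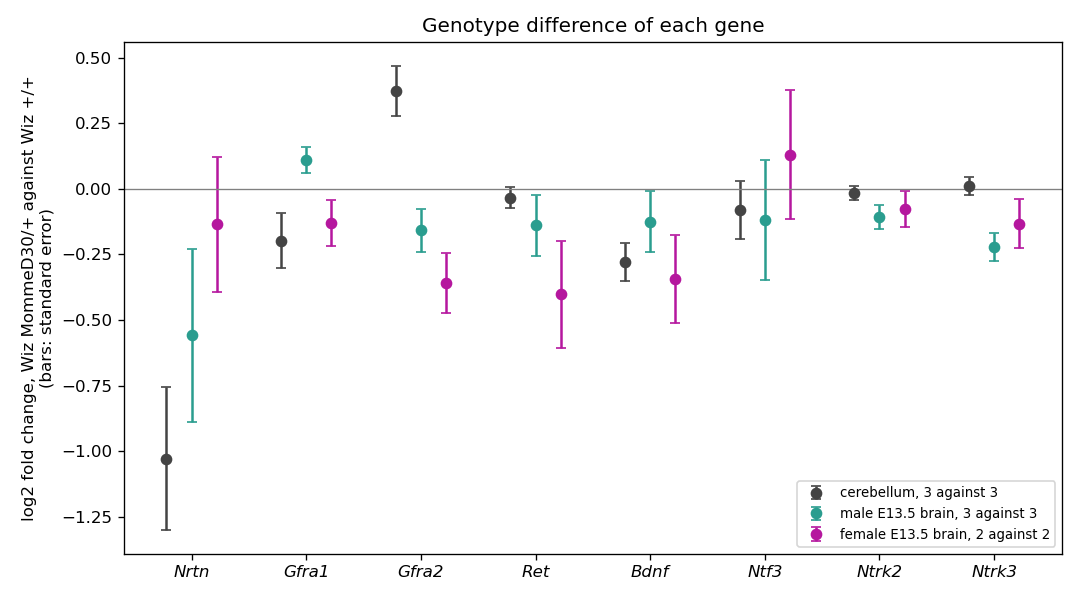
Log2 fold change of Wiz MommeD30/+ over Wiz +/+ from edgeR (vertical axis) with its standard error for the 8 genes, in cerebellum, male E13.5 brain and female E13.5 brain. Nrtn in cerebellum, at -1.03, is farthest from 0, and Gfra2 is above 0 in cerebellum and below 0 in both sexes at E13.5.

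Ngfr, which encodes the shared neurotrophin receptor p75, had 11.7, 9.55 and 10.9 CPM in Wiz +/+ and 13.8, 12.9 and 13.3 CPM in Wiz MommeD30/+ cerebellum, higher by 0.31 ± 0.08 on the log2 scale (edgeR adjusted p = 0.0268, a fold of 1.24 inside the limit), and leaving out 1 library kept the adjusted p at 0.05 or under in 2 of 6 fits. Artn, Pspn and Ntf5 were under 1 CPM in every library.

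Genes known to be induced by these receptors and by neuronal activity were examined as a list of 16, of which 14 were tested in cerebellum. Of these, 4 were lower by edgeR's adjusted p and 2 of them passed the fold limit, beside 5.25% and 0.832% of all genes tested. The median log2 fold change of the list was -0.25 beside -0.00 over all genes. The summed level of the 16 genes overlapped in cerebellum (847 to 962 CPM in Wiz +/+ against 768 to 868 CPM in Wiz MommeD30/+). Vgf, a secreted peptide precursor induced by neurotrophins, ran at 18.9 to 23.3 CPM in Wiz +/+ and 10.96 to 17.4 CPM in Wiz MommeD30/+ cerebellum and fell by 0.58 ± 0.11 (edgeR adjusted p = 0.00671), which was 0.0564 without Wiz +/+ replicate 3. Nr4a1, an immediate early nuclear receptor, fell by 0.52 ± 0.12 (edgeR adjusted p = 0.0141), with overlap between a lowest wild-type value of 42.8 CPM and a highest heterozygous value of 43.8 CPM, and passed in 3 of the 6 fits that left out 1 library. The list was chosen with earlier results of these libraries known, so its direction is not independent evidence. Smaller differences by adjusted p were found for Etv5 (-0.30, edgeR adjusted p = 0.00686) and Arc (-0.24, edgeR adjusted p = 0.0216). By the adjusted p alone Etv5 passed in 5 of 6 fits that left out 1 library, not without Wiz +/+ replicate 3, and Arc in 3 of 6.

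Inhibitors that feed back on these receptors were tested as 15 genes in cerebellum, and 0 passed the fold limit. Of all genes tested there, 0.832% passed the threshold and 5.25% the adjusted p alone. By edgeR's adjusted p alone, the phosphatase genes Dusp4 (-0.45, adjusted p = 0.00966) and Dusp5 (-0.26, adjusted p = 0.00729) and the inhibitor Spred3 (-0.21, adjusted p = 0.0085) were lower and the ubiquitin ligase gene Cblb was higher (0.15, adjusted p = 0.0433). Without 1 library at a time the adjusted p stayed under 0.05 in 5 of 6 fits for Dusp4 and Spred3, in 4 for Dusp5 and in 1 for Cblb, and without Wiz +/+ replicate 3 it did not for any of the 4. For Dusp4 the cerebellar and the male E13.5 effects differed by -0.52 ± 0.09 (edgeR adjusted p = 0.0223), which held in 6 of 12 fits that left out 1 library. Of 40 adaptors and effectors, 1 was higher and 1 lower by the adjusted p, near the 5.25% of all genes. These were Grb10 (0.19, edgeR adjusted p = 0.0207) and Map2k2 (-0.14, edgeR adjusted p = 0.0357). Both were inside the fold limit, and they held in 3 and 0 of 6 such fits. Of 8 genes that process proneurotrophins, Pcsk2 was lower (-0.17, edgeR adjusted p = 0.00485) and held in all 6, and of 10 p75 effectors 0 passed by edgeR's adjusted p.

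At E13.5 the 1 gene of these lists past the threshold was Mmp9, a metalloproteinase that can cleave proneurotrophins. It passed over both sexes, where 0.346% of all genes tested did. It ran at 6.16 to 7.57 CPM in male Wiz +/+ and 3.42 to 5.03 CPM in male Wiz MommeD30/+ brain, and at 7.22 to 7.48 against 4.32 to 4.49 CPM in females. Over the 10 brains it fell by 0.70 ± 0.10 on the log2 scale (edgeR adjusted p = 0.00287), lower in heterozygotes without overlap in both sexes, and it passed in all 10 fits that left out 1 library.

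Markers of other cell types moved with genotype in cerebellum, where 0.832% of all genes tested passed the threshold and 5.25% the adjusted p alone. Erythroid markers were higher in Wiz MommeD30/+, with 4 of 6 tested past the threshold and a summed level of 267 to 483 CPM against 146 to 228 CPM, and the globin genes among them share near-identical copies. Of the 4, Hba-a2 lost the call when any 1 library was left out and Hba-a1 without Wiz +/+ replicate 1. The noradrenergic transporter gene Slc6a2 fell by 2.10 on the log2 scale (edgeR adjusted p = 0.00554), from 0.608 to 0.883 CPM down to 0.068 to 0.292 CPM, while the summed level of its 6 markers overlapped (10.2 to 11.5 against 9.34 to 10.7 CPM). Granule cell markers overlapped (6321 to 6372 against 6202 to 6470 CPM), with 1 of 8 higher and 1 lower by edgeR's adjusted p. By the adjusted p, neural progenitor and oligodendrocyte markers each had 3 of 8 lower and young neuron markers 2 of 7 lower, with 0 past the fold limit. The summed level of the young neuron markers did not overlap (846 to 880 CPM in Wiz +/+ against 787 to 815 CPM), while that of oligodendrocyte markers (4899 to 5268 against 4746 to 4946 CPM) and of progenitor markers (419 to 426 against 397 to 426 CPM) did. Their part in the values of Nrtn, Gfra2 and Bdnf was not tested.

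The E13.5 brains differed in their level of sensory ganglion markers. The summed level of 7 ganglion markers (8 in the list) ran from 97.5 CPM in female Wiz MommeD30/+ replicate 2 to 213 CPM in female Wiz +/+ replicate 2, and was 2.82 to 4.79 CPM in cerebellum. Those same libraries had the lowest and the highest Gfra3, 0.990 and 5.82 CPM. Ret (37.8 CPM), Ngfr (74.4 CPM), Gfra1 (89.1 CPM) and Gfra2 (21.7 CPM) were also highest in female Wiz +/+ replicate 2. Their lowest values did not fall in the library lowest in markers: Ret (19.3 CPM), Ngfr (45.3 CPM) and Gfra1 (65.2 CPM) were lowest in male Wiz +/+ replicate 2 and Gfra2 (14.6 CPM) in male Wiz MommeD30/+ replicate 2. Ntrk2 and Ntrk3 were highest in male Wiz +/+ replicate 1 instead, at 182 and 37.8 CPM. What the ganglion content adds to the genotype values at E13.5 was not tested beyond leaving both females out.

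**Figure D3:**
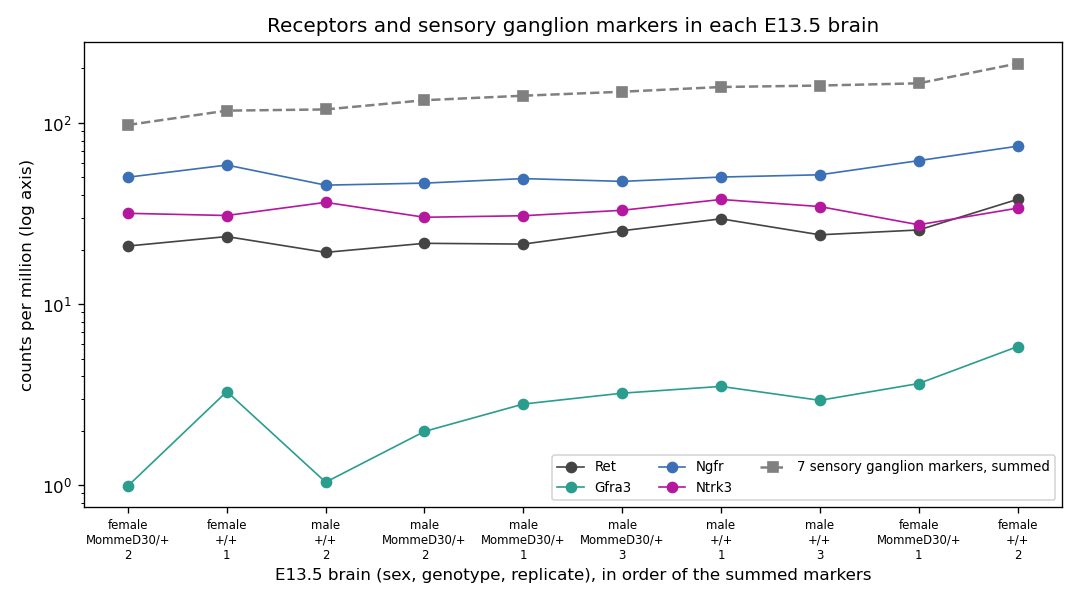
CPM (vertical axis, log scale) of Ret, Gfra3, Ngfr and Ntrk3 and of 7 summed sensory ganglion markers (grey squares) in the 10 E13.5 brains, each labelled by sex, genotype and replicate and placed in order of the summed markers. Female Wiz +/+ replicate 2, with 213 CPM of markers, is highest for all of these genes except Ntrk3.

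Between the sexes at E13.5, 0 of the 8 genes passed the threshold, against 1.46% of all genes tested, and 3 had an unadjusted edgeR p under 0.05, against 28.0%. Nrtn was higher in females by 0.48 ± 0.22 (edgeR adjusted p = 0.169). The genotype effect differed between the sexes for 0 of the 8 genes (0.0% of all genes) by edgeR's adjusted p, with 1 at an unadjusted p under 0.05 against 3.98% of all genes. Ntrk3 was lower in females by 0.13 (edgeR adjusted p = 0.124). Without the outlying female of each genotype the value was 0.22. Those 2 libraries were picked after the data were seen, and 1 female per genotype then remains, so nothing is read from the change. Of the other receptor genes, Ngfr was higher in females by 0.32 ± 0.07 (edgeR adjusted p = 0.0164), inside the fold limit. Its adjusted p stayed under 0.05 in all 10 fits that left out 1 library. The libraries of the sexes may be different sets, so sex and set cannot be told apart. Summed meningeal and fibroblast markers were 852 to 975 CPM in female and 681 to 770 CPM in male brains. Their part in the sex values was not tested.

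The adult cerebellum and the E13.5 brain were compared in male mice within each genotype, 3 libraries against 3. Age, brain region and set of libraries all differ between them and cannot be told apart. Nrtn, which the cerebellar libraries chose, is left out of the counts. In Wiz +/+ the other 7 genes passed the threshold, against 69.3% of all genes tested, so that passing is common here. In cerebellum 5 were higher (36.4% of all genes) and 2 lower (32.9%). In Wiz MommeD30/+ the other 7 passed too, against 68.8%, with 5 higher (35.8% of all genes) and 2 lower (33.0%).

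Of the ligands, Bdnf and Ntf3 rose from E13.5 brain to cerebellum. Bdnf was 24.9 ± 1.03 CPM there and 3.04 ± 0.272 CPM in male E13.5 brain of Wiz +/+ mice (SD, n = 3 each), a log2 fold change of 3.22 ± 0.08 (edgeR adjusted p = 1.15e-14), and 3.08 ± 0.11 in Wiz MommeD30/+ (edgeR adjusted p = 3.1e-12). Ntf3 was 4.63 ± 0.442 against 0.813 ± 0.175 CPM, a log2 fold change of 2.72 ± 0.17 (edgeR adjusted p = 5.51e-10). Nrtn was higher in cerebellum by 1.26 ± 0.22 (SE) in Wiz +/+ and by 0.79 ± 0.39 (SE) in Wiz MommeD30/+, both given without a test because the cerebellar libraries chose it. In Wiz MommeD30/+ its cerebellar range of 0.305 to 0.776 CPM overlapped the male E13.5 range of 0.176 to 0.488 CPM.

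The receptors split. The co-receptor Gfra1 had the lowest log2 fold change of the 8 genes, 5.22 ± 0.31 CPM in Wiz +/+ cerebellum against 67.7 ± 2.24 CPM in male Wiz +/+ E13.5 brain (SD, n = 3 each), a log2 fold change of -3.48 ± 0.06 (edgeR adjusted p = 2.29e-16). Gfra2 was lower by a smaller step, 6.80 ± 0.888 against 16.7 ± 1.91 CPM, with log2 fold changes of -1.11 in Wiz +/+ (edgeR adjusted p = 8.8e-08) and -0.57 in Wiz MommeD30/+ (edgeR adjusted p = 5.54e-06). Ret went the other way, 79.1 ± 3.38 against 24.3 ± 5.13 CPM, higher by 1.86 ± 0.10 (edgeR adjusted p = 5.53e-11). Ntrk2 was higher in cerebellum by 1.57 ± 0.05 (edgeR adjusted p = 5.61e-14) and Ntrk3 by 1.496 ± 0.045 (edgeR adjusted p = 7.78e-14). In Wiz MommeD30/+ the steps were 1.99 for Ret, 1.67 for Ntrk2, 1.73 for Ntrk3 and -3.79 for Gfra1, all past the threshold. Scaling by library totals instead of TMM factors moved the median of all genes by -0.21 in Wiz +/+ and -0.22 in Wiz MommeD30/+, and all 8 genes kept their direction.

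**Figure D4:**
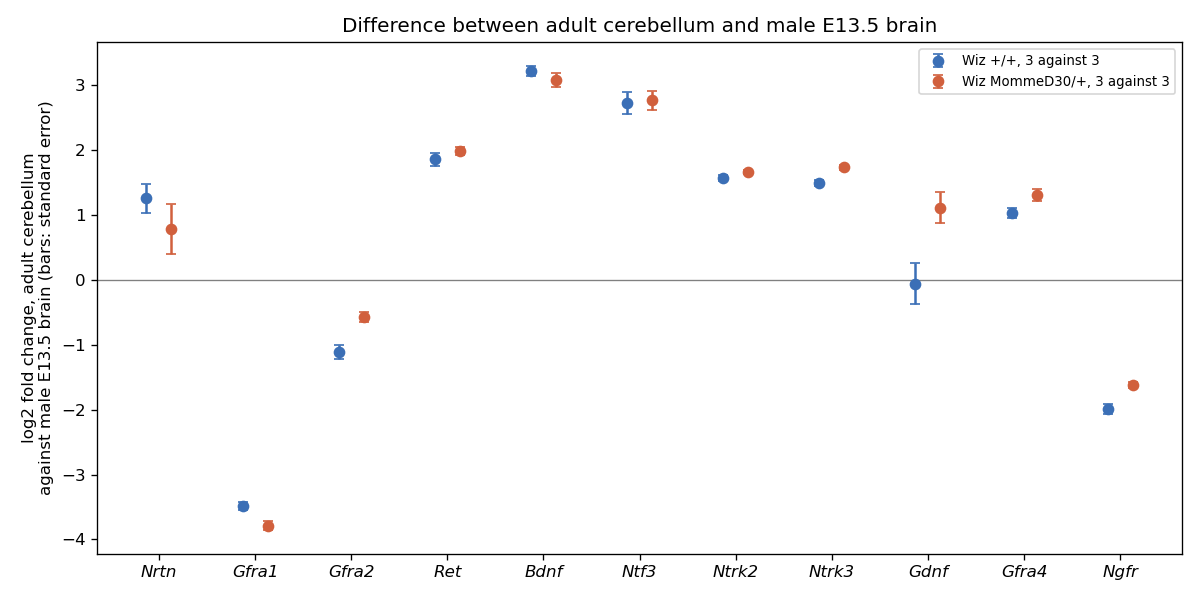
Log2 fold change of adult cerebellum over male E13.5 brain (vertical axis) with its standard error for the 8 genes and for Gdnf, Gfra4 and Ngfr, in Wiz +/+ and in Wiz MommeD30/+. Bdnf, Ntf3, Ret, Ntrk2, Ntrk3 and Nrtn lie above 0, and Gfra1, at -3.48 and -3.79, is lowest of the 8.

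The receptor genes Ngfr and Gfra3 were lower in cerebellum. Ngfr fell in Wiz +/+ (-1.99, edgeR adjusted p = 1.11e-12), and Gfra3 had 0 reads in the 3 Wiz MommeD30/+ cerebellums against 304 in the 3 male brains, at least 77.8-fold higher in the brain with a floor of 3 counts over the group. In Wiz +/+ Gfra3 had 1 read in cerebellum against 295, a ratio of 265 with a 95% interval of 47.2 to 10493 that covers counting error only. Gfra4 was higher in cerebellum (1.03, edgeR adjusted p = 8.66e-09). Gdnf differed between tissues in Wiz MommeD30/+ (1.11 ± 0.24, edgeR adjusted p = 0.000657) and not past the threshold in Wiz +/+ (-0.06, edgeR adjusted p = 0.875). The difference of these 2 differences was 1.16 ± 0.41 and did not pass (edgeR adjusted p = 0.334).

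Across the pathway lists, counts past the threshold in Wiz +/+ were mixed, beside 69.3% of all genes and a median log2 fold change of -0.02 over all genes, and every gene named here passed. Sorl1, a sorting receptor, was higher in cerebellum by 3.85. Of 9 genes that process proneurotrophins 4 were higher and 3 lower, with a median of 0.32, among them the convertase genes Pcsk6 (3.80) and Pcsk1 (2.23) and the plasminogen gene Plg (-2.04). Of 40 adaptors and effectors 9 were higher and 17 lower, with a median of -0.30, among them the adaptor genes Grb7 (4.93) and Grb10 (-3.19) and the kinase gene Rps6ka1 (3.40). Of 10 p75 effectors 2 were higher and 5 lower, with a median of -0.48, and Magel2 was lowest at -7.44, while the Nogo receptor gene Rtn4r was at 1.87 and its partner Lingo1 at -1.03. Of 15 feedback inhibitors 6 were higher and 6 lower, with a median of -0.31, with Dusp5 at 6.59, Dusp4 at -3.34 and Il17rd at -3.05. Of 16 response genes 12 were higher and 2 lower, with a median of 1.92, with the immediate early gene Fos at 5.46, Etv1 at 4.18 and Egr2 at -4.13.

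Levels per kilobase of exon (RPKM) allow the genes to be ordered within a tissue. In Wiz +/+ cerebellum Ntrk2 led at 22.8 RPKM, followed by Ret at 11.7, Bdnf at 4.01, Ntrk3 at 2.93, Ntf3 at 2.70, Gfra2 at 1.92, Nrtn at 1.11 and Gfra1 at 0.954. In male Wiz +/+ E13.5 brain the order was Gfra1 at 12.4 RPKM, Ntrk2 at 8.86, Gfra2 at 4.73, Ret at 3.60, Ntrk3 at 1.20, Nrtn at 0.557, Bdnf at 0.488 and Ntf3 at 0.474. The lengths sum every annotated exon, 19.29 kb for Ntrk2 and 30.17 kb for Ntrk3 beside 1.02 kb for Nrtn, so genes with many alternative exons come out low. The Ntrk2 to Ntrk3 ratio was close in all groups, with means of 7.37 to 8.33 per length. The Gfra2 to Gfra1 ratio went from 0.382 in male Wiz +/+ E13.5 brain to 2.01 in Wiz +/+ cerebellum.

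**Figure D5:**
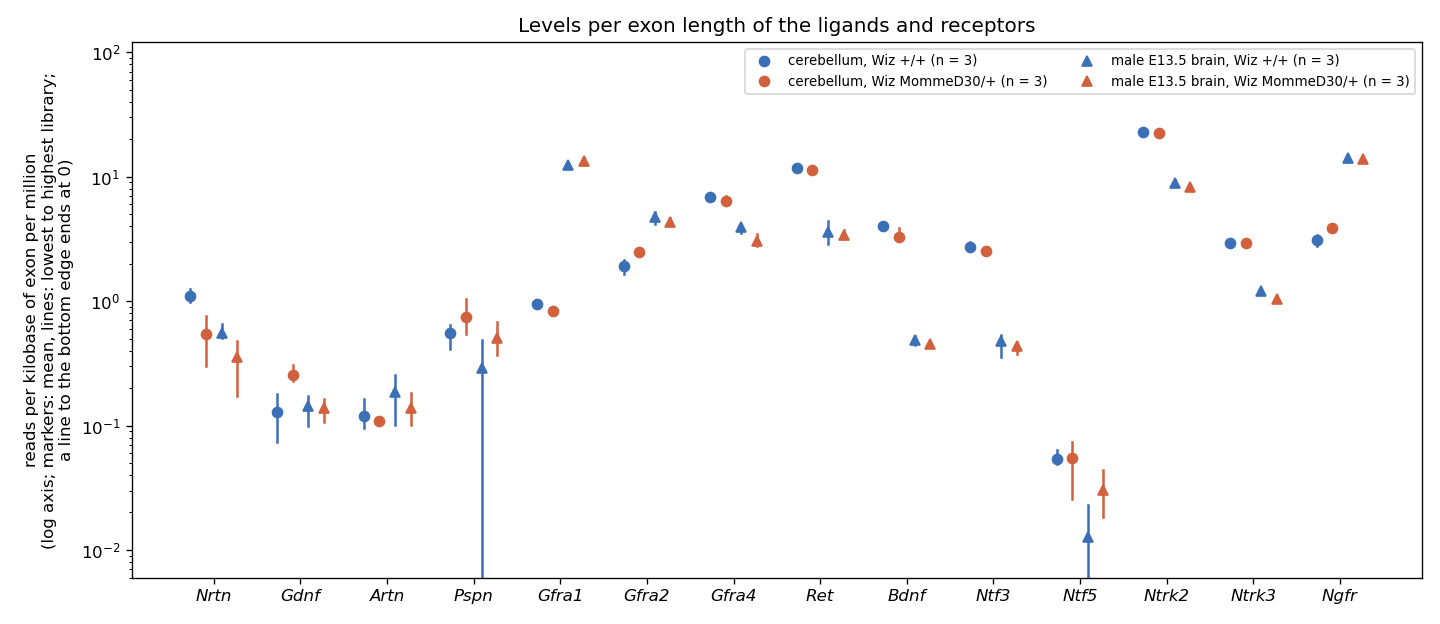
Level per kilobase of exon (RPKM, vertical axis, log scale) of the 8 genes and 6 other ligands and receptors in cerebellum (circles) and male E13.5 brain (triangles), Wiz +/+ in blue and Wiz MommeD30/+ in red, with the mean as a marker, the lowest to highest of 3 libraries as a line, and a line to the bottom edge where a library is at 0. Ntrk2 and Ret lead in cerebellum, and Gfra1 leads among the 8 genes in E13.5 brain.

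By group, Nrtn was highest in Wiz +/+ cerebellum, then in female Wiz +/+ and female Wiz MommeD30/+ brain, with the first apart from the second and the second from the third, while female Wiz MommeD30/+ brain, male Wiz +/+ brain, Wiz MommeD30/+ cerebellum and male Wiz MommeD30/+ brain followed with each overlapping the next. For the other 7 genes the cerebellar groups were apart from the E13.5 groups, as were the male groups of 88.0% of all genes tested in Wiz +/+ and 88.9% in Wiz MommeD30/+. Within a tissue neighbours in the order mostly overlapped, with the exception of Gfra1 and Gfra2 between the cerebellar genotypes, of Bdnf between male and female Wiz MommeD30/+ brain and of Ntrk3 between male and female Wiz +/+ brain.

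Around Nrtn, none of the nearest 10 genes, 5 on each side, overlapped it. In cerebellum 7 of them were tested, with log2 fold changes from -0.37 to 0.27, and 1 passed by edgeR's adjusted p, beside 5.25% of all genes: Ndufa11, a subunit of respiratory complex I (-0.16 ± 0.04, edgeR adjusted p = 0.0435), which held in 2 of 6 fits that left out 1 library. At E13.5 8 were tested and 0 passed by edgeR's adjusted p. Pspn, the gene of another GDNF family ligand, lies 242 kb from Nrtn. Bdnf and Gfra1 share exon sequence with genes on the opposite strand (Gm45346 and Gm16277). Since the strand setting of the counting is not given in the sources used here, reads from the 2 strands cannot be told apart there. Gm16277 was counted at 8 reads over all libraries, and Gm45346 was not among the counted genes.

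The genes whose log2 CPM over the 16 libraries was most like that of Nrtn were Il6ra (Pearson r 0.877), Armc5 (0.824), Sdf2 (0.820), Gm14963 (0.814) and Rilpl1 (0.806), among 16884 genes compared. For the other 7 genes the closest had r of at least 0.976, such as Atp6ap2 for Bdnf (0.997), Gpi1 for Ntf3 (0.996), Tmeff2 for Ret (0.995), Slc2a3 for Ntrk2 (0.999) and Ppargc1a for Ntrk3 (0.998). The libraries are 6 cerebellums and 10 E13.5 brains, each set sharing age and region, and the likeness is a description without a test.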

How the data were processed

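RNA-seq of 16 of the series' 19 samples was used, and the 3 ChIP-seq samples were not analysed here. The authors prepared poly(A) libraries with a TruSeq kit, sequenced 100-base single reads, aligned them to mm10 with TopHat2 2.0.11 and counted reads per Ensembl gene with htseq-count 0.6.1. The deposited values are raw read counts, with 1 table per sample, and were used as deposited. The strand setting, the overlap mode and the annotation release are not given in the sources used here. The study tested genotype with DESeq, which was replaced here by edgeR 4.0.16 in R 4.3.3.

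Counts were fitted with edgeR's quasi-likelihood test (TMM factors, filterByExpr with a minimum count of 10, sex as a covariate where both sexes entered), with Benjamini-Hochberg adjustment over all genes in each of 9 comparisons. Genes past the threshold have a fold under 0.7 or over 1.3 with an adjusted p no larger than 0.05, and for interaction terms the adjusted p alone counts. Values after ± are SD for levels and SE for log2 fold changes. CPM are counts-per-million of all counts in a library, and RPKM are CPM per kilobase of exon union (GENCODE, GRCm38). Files held 41388 genes, 40254 with an annotation entry. The fits were tested on simulated counts. Tables were handled with pandas 2.3.3.

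The 8 genes and the lists were chosen with earlier results of these data known. Named were the 8 genes, Wiz, other ligands and receptors of the 2 families (some are not reported here), list genes past the threshold between genotypes, the 3 largest per pathway list between tissues, the neighbours of Nrtn, and the 5 genes most like each member over the libraries (log2 of CPM plus 0.1). List genes past the adjusted p alone were named after their values were seen. Alternatives were DESeq2 1.42.0, other filters, one fit over all libraries, a replicate block and single libraries left out. Depth limits low genes such as Nrtn, where a library held 6 to 39 reads.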

Additional observations from a re-analysis of the deposited data

How the results depend on the processing

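The cerebellar contrast served in the choice, so nothing is read from its counts or from their changes. In cerebellum the count of 8 genes past the threshold was 1. It was 3 with the adjusted p alone, and 0 with DESeq2's test, where Nrtn had no adjusted p, with a mean count of at least 50, which removes Nrtn, and with one fit over 16 libraries. Leaving out single libraries gave 0 to 1, and without Wiz +/+ replicate 1 or Wiz MommeD30/+ replicate 2 that 1 was Gfra2 in place of Nrtn. In females it gave 0 to 1 (Ret), where an arm of 1 library is assumed to vary like the rest, and for the tissues in Wiz MommeD30/+ 7 to 8. The genotype by tissue term passed for 1 gene (Gfra2) without the filter. The tissue value of Nrtn in Wiz MommeD30/+, 0.79, passed without the filter and in one fit. Both values hold the cerebellar libraries that served in the choice, so nothing is read from either pass. Why these counts moved was not tested beyond what each setting removes. Same-numbered libraries did not deviate together (correlations -0.16 to -0.02). With 3 or 2 libraries per group, this cannot show whether the numbers pair the samples. With a replicate block the cerebellar count stayed at 1, with Nrtn at -1.03, and every other count was unchanged. With the block the adjusted p of Gfra4 over both sexes at E13.5 was 0.179 and that of the genotype by tissue term of Dusp4 0.0686, so both calls were lost. The block could not be fitted for sex.

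Without the outlying female of each genotype the sex value of Ntf3 turned from -0.02 to 0.0499 and the genotype by sex term of Ret from -0.27 to 0.257. Leaving out single libraries turned the sign of small estimates. In cerebellum these ran from -0.0523 to 0.00128 (Ret), -0.131 to 0.00107 (Ntf3) and -0.0042 to 0.038 (Ntrk3). In male brain they ran from -0.249 to 0.0381 (Ret) and -0.298 to 0.0513 (Ntf3), in female brain from -0.261 to 0.0105 (Gfra1) and -0.168 to 0.0205 (Ntrk2), and over both from -0.0212 to 0.0778 (Gfra1) and -0.0846 to 0.091 (Ntf3). The genotype by tissue term ran from -0.0732 to 0.228 (Ret) and -0.152 to 0.216 (Ntf3), and the genotype by sex term from -0.561 to 0.116 (Ret), -0.0519 to 0.131 (Ntrk2) and -0.0213 to 0.194 (Ntrk3). The sex value ran from -0.0158 to 0.26 (Ret) and -0.0958 to 0.0691 (Ntf3). Of the other values for single genes, 932 kept their direction and their side of the threshold, 8 newly passed it and 5 no longer did.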
